A study of Mus musculus with 24 samples.

Results

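The genes of respiratory complex I were followed through 24 muscle libraries of the mouse as all rows of the raw count table whose symbol starts with Ndufa, Ndufb, Ndufc, Ndufs or Ndufv. The rule took 46 of the 24537 genes in the table. By name, 38 were counted as subunits and 8 (Ndufaf1 to Ndufaf8) as assembly factors. The 38 include Ndufa4, which is found in purified complex IV, and its paralog Ndufa4l2. All 46 passed the filter on low counts, and the rule used no measured value. The mitochondrially encoded subunits are not analysed here. The study induced the 4 reprogramming factors Oct4, Sox2, Klf4 and c-Myc (OSKM, encoded by Pou5f1, Sox2, Klf4 and Myc) in myofibers of living mice. Polyadenylated RNA of the whole extensor digitorum longus (EDL, a fast-twitch muscle) and the whole soleus (SOL, a muscle rich in slow-twitch fibers) was sequenced in each mouse group. Acta1-Cre+/4Fhet mice were compared with Acta1-Cre-/4Fhet mice, and both genotypes carried the OSKM cassette and received doxycycline (Dox, 1 mg/ml of drinking water) at the age of 2 months, with muscles taken after 2.5 days, 5.5 days or 8.5 days. Cre, driven by the muscle actin promoter Acta1, removes a stop cassette in front of the Dox-dependent activator rtTA, so OSKM can be induced only where Cre has acted, while the libraries hold the RNA of all cells of the muscle. Each muscle, genotype and day had 2 libraries, and 5.5 days, which the study's text does not describe, is given apart here. The p-values below set a change against the spread between libraries, estimated over all groups of a fit. They treat the EDL and SOL libraries as independent.

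Complex I, or NADH:ubiquinone oxidoreductase, is the entry point of electrons from NADH into the mitochondrial respiratory chain. Its matrix arm holds the N module, which oxidizes NADH on a flavin, and the Q module, which carries the electrons over iron-sulfur clusters to ubiquinone. Its membrane arm, with a proximal and a distal part, pumps protons, and assembly factors join the modules without staying in the finished enzyme. Muscle is rich in mitochondria, and most subunits are nuclear genes that are transcribed together with those of the other respiratory complexes.

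Total counts ran from 36088781 to 54679082 per library, and the 38 subunit genes took between 0.573% and 1.27% of them. Of the induced genes, Pou5f1 was checked first. Pou5f1 was at no more than 0.0896 FPKM in any Cre- library, while the Cre+ EDL libraries held 17.5 and 70.5 FPKM at 2.5 days and 76.2 and 57.7 FPKM at 8.5 days. In Cre+ SOL the values were lower, at 5.02 and 9.62 FPKM at 2.5 days and 12.2 and 6.19 FPKM at 8.5 days. Klf4 overlapped between the genotypes in SOL at these days, at 11.1 to 22.6 FPKM in Cre- and 12.6 to 22.7 FPKM in Cre+. In Cre- muscle all 7 fast-fiber markers tested were higher in EDL than in SOL and all 6 slow-fiber markers were lower, so the muscles matched their labels. In whole-muscle RNA, fewer fibers and less RNA per fiber cannot be told apart.

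The level of each subunit gene was expressed as FPKM, the fragments per kilobase of exon and per unit of library size, computed from the counts, the exon length in the table and the library total. Counts per library size alone, without the length, are given as CPM. In Cre- EDL (4 libraries of 2.5 and 8.5 days) the mean ran from 21.5 FPKM for Ndufab1 to 1161 FPKM for Ndufa4, with a median of 262 FPKM over the 38 subunits. In Cre- SOL it ran from 19.2 to 1286 FPKM with a median of 301 FPKM. The order at the top was the same in both muscles and both genotypes, with Ndufa4 first, followed by Ndufb9 and then Ndufb8. Ndufa4, named as a complex I subunit but found in purified complex IV, held 1161 ± 103 FPKM (SD, n = 4) in Cre- EDL. Ndufb9, of the distal membrane arm, held 753 ± 51.9 FPKM, more than the SD of either below Ndufa4. Ndufb8 followed with 694 ± 67.7 FPKM, below Ndufb9 by more than the SD of Ndufb9 but by less than its own SD. The assembly factors lay far lower, from 9.44 ± 0.476 FPKM for Ndufaf7 to 31.4 ± 2.25 FPKM for Ndufaf1.

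The start sites of the members are shown because most subunit genes moved together in EDL. RefSeq promoters (build GRCm38.p6, 250 bases before to 50 after the start) matched 40 of the 46 members by symbol, 33 of them subunits. Of 7 short motifs searched on both strands, AAGATGGC, a core of YY1 sites, was in 7 of 33 subunit promoters (21.2%) against 2.74% of all 32817 promoters of that length. All 8 member matches, Ndufaf8 among them, read in the direction of the gene and lay 10 to 38 bases after the start. Each holds the letters ATG, and whether these are the start codon of translation was not examined. The set of all promoters was not matched to the members in GC content. The stretches are printed 5′ to 3′ on the gene's strand with the motif in capitals, for the Q module genes Ndufs7 and Ndufa9, the N module genes Ndufs4 and Ndufs6, the membrane-arm genes Ndufa3, Ndufc1 and Ndufb8, and the assembly factor Ndufaf8.
Ndufs7 (chr10:80249462-80249491, + strand): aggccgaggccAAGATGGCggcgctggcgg
Ndufa9 (chr6:126849097-126849126, - strand): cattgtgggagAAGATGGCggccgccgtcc
Ndufs4 (chr13:114388045-114388070, - strand): ttgcctacaggAAGATGGCggcggtc
Ndufs6 (chr13:73328433-73328460, - strand): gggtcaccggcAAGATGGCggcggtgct
Ndufa3 (chr7:3617384-3617413, + strand): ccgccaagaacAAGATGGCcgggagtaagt
Ndufc1 (chr3:51408915-51408944, - strand): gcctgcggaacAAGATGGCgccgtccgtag
Ndufb8 (chr19:44555393-44555415, - strand): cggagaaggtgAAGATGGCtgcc
Ndufaf8 (chr11:120098933-120098962, + strand): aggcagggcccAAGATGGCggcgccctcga

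The NRF1 core GCATGCGC was in 3 of 33 subunit promoters (9.09%), those of Ndufa6, Ndufa8 and Ndufa11, against 2.71% of all. GGGCGGG, of SP and KLF factors, was in 12 (36.4%) against 25.6%, and CCGGAAG, of ETS factors, was in 4 (12.1%) against 8.86%. CAAGGTCA, of estrogen-related receptors, was in 1 (3.03%) against 1.56%, and the E-box CACGTG, which Myc can bind, was in 2 (6.06%) against 7.15%. ATGCAAAT, the octamer of POU factors such as Oct4, was in 1 (3.03%, Ndufs4) against 1.74%. The median GC content was 59.2% over the 40 member promoters and 52.7% over all promoters. None of the 7 motifs contains another. A match describes the letters only, and no binding was measured. The 250 bases before the start are printed for Ndufa8, a subunit gene that fell in EDL, and for Ndufaf2, the member that moved the other way there, with matches to any of the 7 motifs in capitals. In the first, the capitals are an SP and KLF match on the opposite strand and, next to the start, the NRF1 core, and the second window holds none of the 7.
Ndufa8 (chr2:36049339-36049588, - strand): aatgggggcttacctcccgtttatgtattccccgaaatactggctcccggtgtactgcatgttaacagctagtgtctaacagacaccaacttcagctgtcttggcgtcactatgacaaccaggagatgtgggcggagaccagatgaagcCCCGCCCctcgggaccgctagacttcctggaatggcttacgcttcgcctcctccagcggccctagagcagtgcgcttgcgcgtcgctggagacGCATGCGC
Ndufaf2 (chr13:108158626-108158875, - strand): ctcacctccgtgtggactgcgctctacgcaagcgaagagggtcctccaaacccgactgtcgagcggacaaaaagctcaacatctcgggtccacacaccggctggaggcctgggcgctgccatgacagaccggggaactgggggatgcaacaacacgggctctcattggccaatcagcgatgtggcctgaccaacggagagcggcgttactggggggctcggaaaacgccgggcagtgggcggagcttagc

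Most subunit genes were lower in Cre+ than in Cre- EDL after 2.5 days of Dox. A gene was called changed at an adjusted p under 0.05 (edgeR quasi-likelihood test, Benjamini-Hochberg over all genes tested) and a log2 fold change beyond 0.5 in either direction, in 1 fit to the 16 libraries of 2.5 and 8.5 days. By this rule 32 of 38 subunits fell and 0 rose, while 10.2% of the 15372 genes tested were called lower and 13.8% higher. The median log2 fold change was -0.74 over the subunits and -0.05 over all genes tested. The subunits took 0.880% and 0.905% of all counts in Cre- EDL and 0.665% and 0.696% in Cre+ EDL, with no overlap. Pou5f1 stood at 17.5 FPKM in the first of these Cre+ libraries and 70.5 FPKM in the other. In 34 subunits every Cre+ library lay below every Cre- library in FPKM, against 15.4% of all genes. DESeq2 on the same libraries called 32 as well. Scaling by library size alone, in place of edgeR's TMM factors, moved the median of all genes to 0.28 and that of the subunits to -0.41, so that 7 of 38 subunits passed the fold threshold and 0 rose. All-gene calls then stood at 4207 higher and 610 lower, against 2118 and 1566. The subunit median lay 0.69 below that of all genes under either scaling. FPKM values rest on library totals, while the log2 fold changes rest on TMM factors. Set over all 24 libraries, these factors were 0.957 and 0.921 in the Cre- and 1.15 and 1.21 in the Cre+ libraries of this day, so a log2 fold change of this day lies below the one its FPKM values would give.

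**Figure D1:**
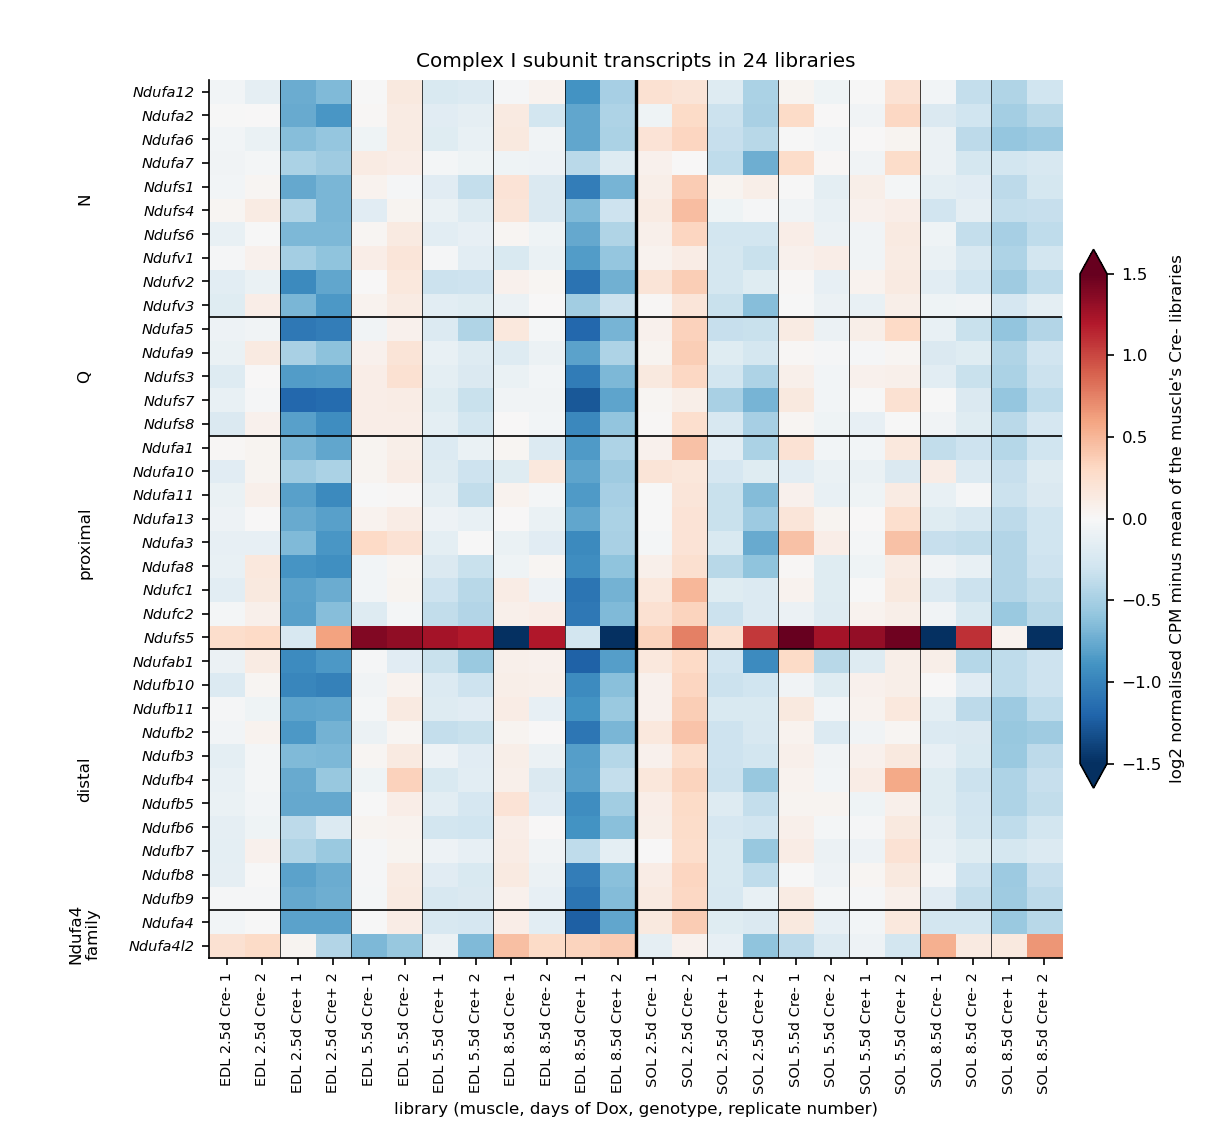
Level of 37 subunits (rows, grouped by module) in the 24 libraries (columns, by muscle, day, genotype and replicate number), as log2 CPM after TMM scaling minus the mean of the Cre- libraries of the same muscle, with the color scale ending at 1.5 in both directions. In EDL at 2.5 and 8.5 days most rows are lower in both Cre+ libraries, whose subunits took 0.573% to 0.696% of all counts against 0.869% to 0.962% in Cre-, while the row of Ndufs5 changes between libraries of 1 group.

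The N module fell in 9 of 10 genes at 2.5 days, with a median log2 fold change of -0.64. Ndufa6, an accessory subunit that docks an acyl carrier protein and the most abundant gene of the module, held 385 and 358 FPKM in Cre- and 305 and 336 FPKM in Cre+ (log2 fold change -0.55 ± 0.14 (SE), adjusted p = 0.0109). The Cre+ libraries were both below the Cre- libraries. Ndufv2, which carries an iron-sulfur cluster beside the flavin, went from 203 and 203 FPKM to 140.3 and 166 FPKM (-0.74 ± 0.14, adjusted p = 0.00209). Ndufv1, the subunit that binds NADH and the flavin, went from 320.1 and 327 FPKM to 273 and 268 FPKM (-0.59 ± 0.13, adjusted p = 0.00577). Ndufa2, an accessory subunit, had the largest change of the module at -0.82 ± 0.16 (adjusted p = 0.00285). Without the second Cre+ library the calls of Ndufa6 and Ndufv1 were lost, and that of Ndufa6 also without the first Cre- library. Ndufa7, at -0.47, did not pass the fold threshold.

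The Q module fell in 6 of 6 genes, with a median of -0.82. Ndufs7 (chr10:80249452-80256792 in mm10) carries the last iron-sulfur cluster before ubiquinone. It held 410.4 and 421 FPKM in Cre- EDL and 233 and 249.8 FPKM in Cre+ EDL, with no overlap between groups. Its log2 fold change of -1.11 ± 0.16 (SE, adjusted p = 0.000287) was the lowest of all 38 subunits. Ndufa5, an accessory subunit of the same module, held 304 and 296 FPKM in Cre- and 182 and 197 FPKM in Cre+ (-0.996 ± 0.16, adjusted p = 0.000733). The groups did not overlap for this gene either, and the smallest change of the module was that of Ndufa9, at -0.58. Both Ndufs7 and Ndufa9 hold the YY1 core printed above, and its part in the changes was not tested. The call of Ndufa9 was lost without the second library of either genotype.

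In the proximal membrane arm 7 of 9 genes fell, with a median of -0.76. Ndufa8, a small protein of the intermembrane-space side, held 259.6 and 299 FPKM in Cre- and 181 and 186 FPKM in Cre+ (-0.94 ± 0.14, adjusted p = 0.000428). Ndufa11 went from 55 and 59.9 FPKM to 40.2 and 38.3 FPKM (-0.88 ± 0.15, adjusted p = 0.00101), and Ndufa3, the most abundant gene of this arm, changed by -0.65 ± 0.18 (adjusted p = 0.0189). The call of Ndufa3 was lost with library size alone (-0.32), with the replicate number as a block (adjusted p = 0.0534) and without either Cre- library or the second Cre+ library in turn (adjusted p = 0.0743 to 0.157). Both libraries of each group stayed apart for all these genes. Ndufa10 overlapped between the groups, at 179 and 200.1 FPKM in Cre- and 167 and 184 FPKM in Cre+, and its log2 fold change of -0.45 was not past the fold threshold. The other gene not called was Ndufs5, described with its pseudogene further on.

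In the distal membrane arm 9 of 11 genes fell, with a median of -0.71. Ndufab1 is the mitochondrial acyl carrier protein, which also serves fatty acid synthesis, and it held 19.7 and 22 FPKM in Cre- and 13 and 14.5 FPKM in Cre+ (-0.93 ± 0.22, adjusted p = 0.00689). Ndufb10 went from 396 and 448 FPKM to 276 and 285 FPKM (-0.92 ± 0.14, adjusted p = 0.000565). Ndufb9, the most abundant gene of the arm, went from 759 and 729.6 FPKM to 541 and 585 FPKM (-0.73 ± 0.16, adjusted p = 0.0041). None of these overlapped between the groups. The calls of Ndufab1, Ndufb3 and Ndufb8 were lost without the second Cre- library, and that of Ndufb3 also without the second Cre+ library. The call of Ndufb4 was lost without each of the 4 libraries in turn and with the replicate number as a block. Ndufb6 held 169.9 and 173 FPKM in Cre- and 170.0 and 205 FPKM in Cre+, overlapping, with a log2 fold change of -0.20 ± 0.12 (adjusted p = 0.244), and Ndufb7, at -0.47, stayed under the fold threshold. Ndufa4 fell from 1153 and 1139.6 FPKM to 813 and 857 FPKM (-0.79 ± 0.16, adjusted p = 0.00284). Its paralog Ndufa4l2, known from cells short of oxygen, stood at 21.3 and 21.4 FPKM in Cre- and 22.4 and 17 FPKM in Cre+ (adjusted p = 0.156).

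After 8.5 days of Dox, 29 of 38 subunits were lower in Cre+ EDL and 0 higher (edgeR), against 6.5% and 7.63% of the 15372 genes tested. The median log2 fold change was -0.70 over the subunits and -0.02 over all genes. The subunits took 0.962% and 0.869% of all counts in Cre- and 0.573% and 0.685% in Cre+, and in 32 of them every Cre+ library lay below every Cre- library, against 15.5% of all genes. DESeq2 on the same libraries called 30. With library size alone 20 subunits passed, the median of all genes moved to 0.16, and all-gene calls stood at 1956 higher and 542 lower against 1173 and 999. The first Cre+ library had the lowest share of subunit counts of all 24. Without it 10 of 38 subunits were called, with a median of -0.53, and without the other Cre+ library 32 were called, with a median of -0.89.

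By module, 7 of 10 genes of the N module (median -0.55), 5 of 6 of the Q module (-0.84), 7 of 9 of the proximal arm (-0.66) and 9 of 11 of the distal arm (-0.79) fell at 8.5 days. Ndufs7 held 436 and 425 FPKM in Cre- and 219 and 286 FPKM in Cre+ (-0.94 ± 0.15, adjusted p = 0.00181). Ndufv2 went from 243 and 230.1 FPKM to 126 and 154 FPKM (-0.93 ± 0.14, adjusted p = 0.00115). The lower Cre+ value of both came from the first library. Ndufab1 had the lowest log2 fold change of the subunits called, at -1.06 ± 0.22 (adjusted p = 0.00626), with 22.6 and 21.7 FPKM in Cre- and 10.8 and 13.2 FPKM in Cre+, a call lost without the first Cre+ library. Ndufa4 held 1301 and 1053 FPKM in Cre- and 606 and 772 FPKM in Cre+ (-0.94 ± 0.16, adjusted p = 0.00205). Ndufb6, which had overlapped at 2.5 days, held 205 and 187 FPKM in Cre- and 120.5 and 135 FPKM in Cre+ and fell (-0.79 ± 0.12, adjusted p = 0.0014). Ndufa7 (-0.20), Ndufb7 (-0.27) and Ndufa4l2 (0.01) did not pass the test at 8.5 days either.

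**Figure D2:**
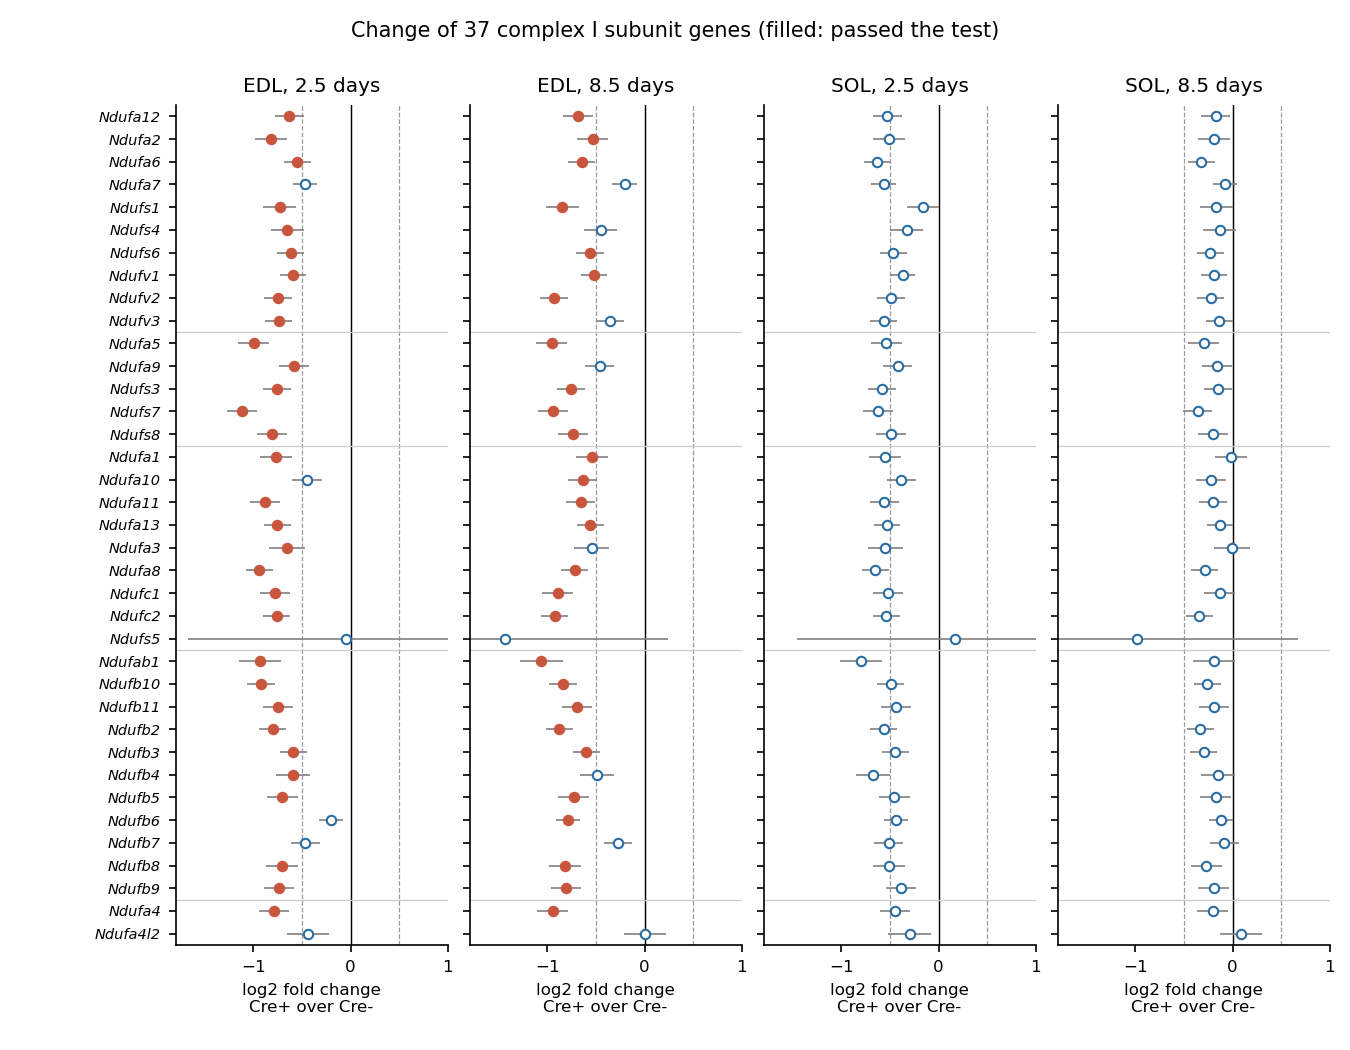
Log2 fold change of Cre+ over Cre- (points) with its standard error (bars) for 37 subunits, in EDL and SOL at 2.5 and 8.5 days, with filled points for genes called and dashed lines at the fold threshold of 0.5. In EDL 31 of these subunits at 2.5 days and 28 at 8.5 days are filled and lie left of 0, while 0 are filled in SOL, and the bars of Ndufs5, each 1.62 or more, run past the axis in places.

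The change at 8.5 days was then set against that at 2.5 days in EDL. No member was called in the difference (0 of 38 subunits, against 0% of all genes in either direction), with a median difference of 0.05. In edgeR 1 subunit, Ndufb6, had an unadjusted p under 0.05, and DESeq2 called 0. Across all 38 subunits the changes at the 2 days had a Pearson correlation of 0.188 and a Spearman correlation of 0.506, against 0.734 and 0.646 over all genes tested. Without Ndufs5, whose reads are split with a pseudogene, and Ndufa4l2, a pair left out after their values were seen, these were 0.54 and 0.605 over 36 subunits. Genes are not independent replicates.

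Ndufs5, of the proximal arm, shares reads with a pseudogene row of the table, BC002163 (chr16:42955580-42956079, 2 copies in the table), so its own counts are uncertain. This pair was chosen after its values were seen. Of all 50-base windows of the Ndufs5 transcript, 41.2% also occur in BC002163. The share of Ndufs5 in the sum of the 2 rows fell into 3 ranges, 0.58% to 1.05% in 4 libraries, 24% to 26.4% in 8 and 48.4% to 49.1% in 12. The EDL and the SOL library of the same group and number lay in the same range in 12 of 12 cases, with a gap of at most 1.76 percentage points. At 5.5 days, and in Cre- at 2.5 days, both replicates of a group lay in the same range. Those cases cannot tell the numbers apart. Within a group, replicates of Ndufs5 differed by up to 6.33 on the log2 scale, while the next gene, Ndufab1, differed by at most 0.75. Alone, Ndufs5 had a log2 fold change of -0.05 ± 1.62 at 2.5 days and -1.43 ± 1.67 at 8.5 days, so no change could be read at this spread. The sum of the 2 rows was 82.9 and 85.3 CPM in Cre- EDL and 68.0 and 68.5 in Cre+ EDL at 2.5 days. It fell by 0.63 ± 0.15 on the log2 scale (SE, adjusted p = 0.0084). At 8.5 days the sum was 98.4 and 81.4 CPM in Cre- and 64.5 and 73.1 in Cre+, and it fell by 0.56 ± 0.15 (adjusted p = 0.0257). With the sum in place of Ndufs5, an alternative chosen after seeing the data, 33 and 30 subunits were called lower in EDL at the 2 days.

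**Figure D3:**
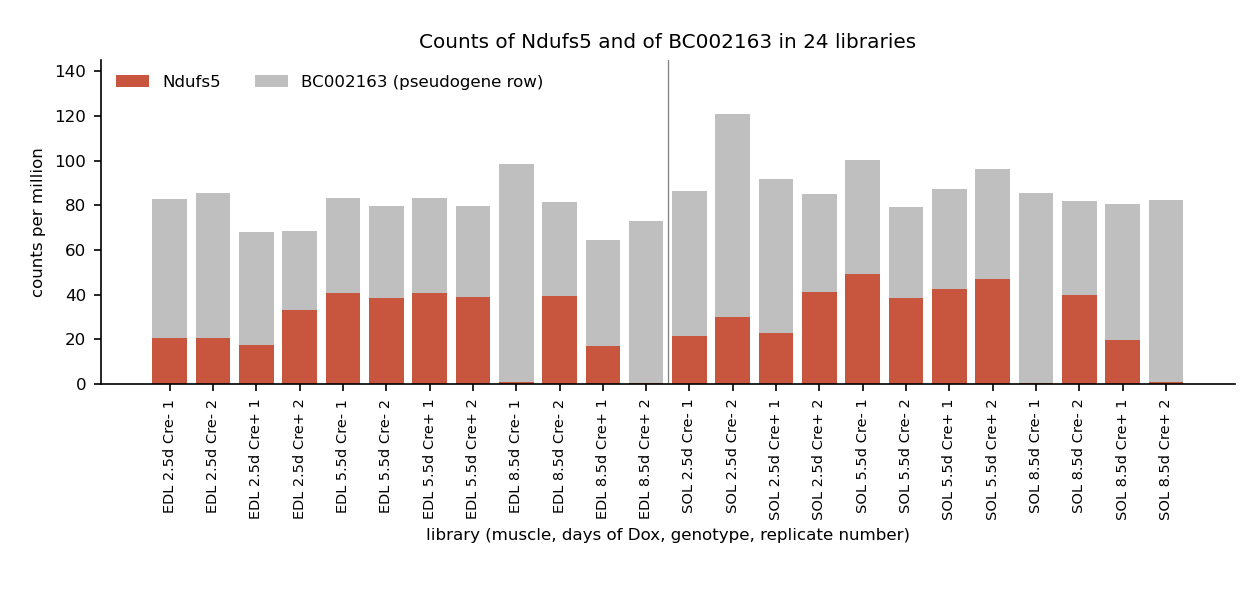
Counts of Ndufs5 and of the pseudogene row BC002163, stacked, in CPM in each of the 24 libraries, by muscle, day, genotype and replicate number. The part given to Ndufs5 is 0.58% to 1.05%, 24% to 26.4% or 48.4% to 49.1% of the bar and does not follow the genotype, and the whole bar in EDL at 2.5 days is 68.0 and 68.5 CPM in Cre+ against 82.9 and 85.3 CPM in Cre-.

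In SOL, none of the 38 subunits was called at 2.5 days (edgeR), where 0.039% of all genes were called lower and 0.345% higher. Of the 38, 34 had an unadjusted p under 0.05, all below 0, and DESeq2 on the same 16 libraries called 20. The median log2 fold change was -0.51 over the subunits and 0.02 over all genes, and in 34 subunits every Cre+ library lay below every Cre- library, against 10.5% of all genes. The subunits took 1.06% and 1.27% of all counts in Cre- SOL and 0.964% and 0.925% in Cre+ SOL. Ndufs7 held 437 and 476 FPKM in Cre- and 352 and 307 FPKM in Cre+, a log2 fold change of -0.62 ± 0.15 (adjusted p = 0.119). Ndufab1 had the lowest value, at -0.80 ± 0.22 (adjusted p = 0.148), with 26 and 30.0 FPKM in Cre- and 21.8 and 13.9 FPKM in Cre+. The groups of both genes stood apart, but the adjusted p did not pass.

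At 8.5 days in SOL none was called either, against 0.299% of all genes called lower and 0.332% higher. Here 4 subunits had an unadjusted p under 0.05, DESeq2 called 0, and the median was -0.19, against -0.01 over all genes. The subunits took 0.919% and 0.913% of counts in Cre- and 0.802% and 0.827% in Cre+, and 30 subunits had every Cre+ library below every Cre- library, against 14.5% of all genes. Ndufs7 held 435 and 403 FPKM in Cre- and 321 and 348 FPKM in Cre+ (-0.36 ± 0.15, adjusted p = 0.684). At this day 4 liver markers summed to 20.8 and 127 CPM in the Cre- SOL libraries and to 0.961 and 1.39 CPM in Cre+ SOL, all 4 called lower, and their part in these values was not tested.

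Whether the change differed between the muscles was tested directly, as the change in EDL minus the change in SOL. At 2.5 days 0 of 38 subunits were called (0.891% of all genes lower, 3.36% higher), with a median difference of -0.22. This median was -0.04 with library size alone, -0.11 without the first and -0.34 without the second Cre- SOL library of that day. At 8.5 days 0 were called (0.0585% lower, 0.533% higher), with a median of -0.52, which was -0.34 without the first Cre+ EDL library. In edgeR 2 and 23 subunits had an unadjusted p under 0.05 at the 2 days, and DESeq2 called 0 and 4. A larger fall of the subunits in EDL than in SOL was therefore not shown at the threshold.

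The muscles themselves were compared within each genotype, over both days. In Cre- muscle 1 of 38 subunits, Ndufb3 of the distal arm, was lower in EDL and 0 higher, against 11.1% and 10.8% of all genes. Ndufb3 (chr1:58586397-58595964 in mm10) stood at 167 ± 14.4 FPKM (SD, n = 4) in the EDL and at 306 ± 45.3 FPKM in the SOL of Cre- mice, a log2 difference of -0.78 ± 0.10 (adjusted p = 7.57e-05). Next came Ndufa10 at -0.46, Ndufv1 at -0.42 and Ndufb7 at -0.39, all under the fold threshold, and the median over the subunits was -0.05. The highest values were 0.34 for Ndufa4l2, 0.16 for Ndufc1 and 0.15 for Ndufb4, which did not pass the test. In Cre+ muscle 16 subunits were lower in EDL than in SOL and 0 higher, against 14.6% and 15% of all genes, with a median of -0.45. Without the first Cre+ EDL library of 8.5 days this count was 8, and Ndufa4 was among the calls lost. Ndufb3 was again the lowest, with 132 ± 11.3 FPKM in the EDL against 252 ± 28.2 FPKM in the SOL (-0.997 ± 0.10, adjusted p = 8.38e-06). Ndufa4 held 762 ± 109.7 FPKM in the EDL of Cre+ mice against 1086 ± 163 FPKM in their SOL (-0.57 ± 0.11, adjusted p = 0.00134). In Cre- muscle its difference was -0.03. Its change in EDL minus that in SOL was not called at 2.5 days (adjusted p = 0.41) or 8.5 days (adjusted p = 0.217).

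**Figure D4:**
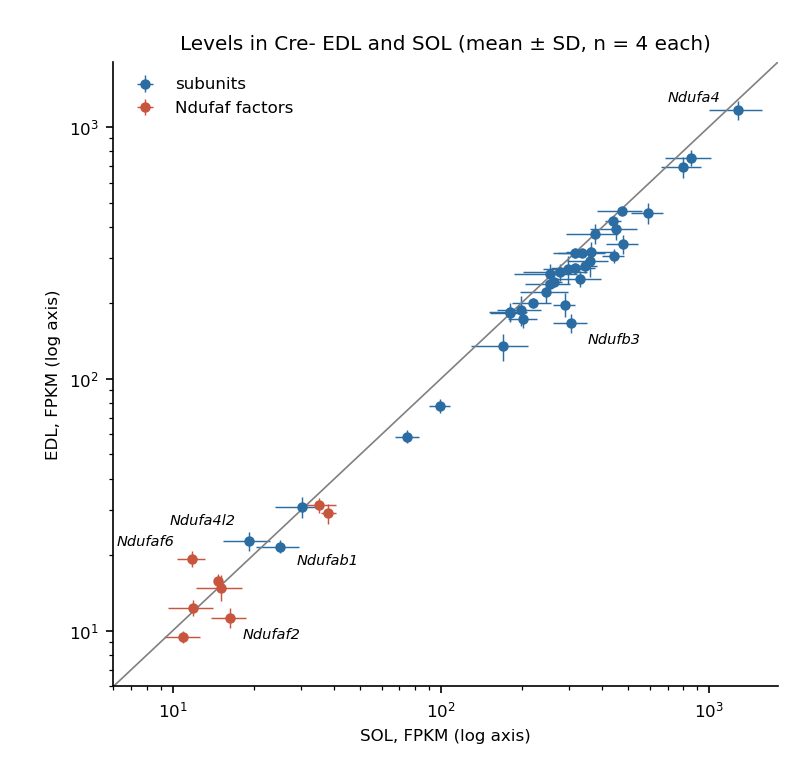
Mean FPKM with SD (bars, 4 libraries of 2.5 and 8.5 days) of 36 subunits, without Ndufs5, and of the 8 Ndufaf factors in Cre- SOL (x axis) and Cre- EDL (y axis), both on log axes, with the line of equal levels. The subunit called lower in EDL is Ndufb3, at 167 against 306 FPKM, and the assembly factor called higher is Ndufaf6, at 19.3 against 11.8 FPKM.

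At 5.5 days 0 of 38 subunits were called in EDL (edgeR fit to all 24 libraries and 15478 genes, 0.0452% of them called lower and 0.258% higher) and 0 in SOL (0% in either direction). In EDL 12 subunits had an unadjusted p under 0.05 and the median was -0.27, in SOL 0 had and the median was 0.05, and DESeq2 called 0 in both. The subunits took 0.848% and 0.894% of counts in Cre- EDL and 0.812% and 0.773% in Cre+ EDL. Ndufs7 held 427 and 426 FPKM in Cre- EDL and 386 and 345 FPKM in Cre+ EDL (-0.37 ± 0.14, adjusted p = 0.444). In SOL the shares were 1.01% and 0.907% in Cre- and 0.985% and 1.08% in Cre+, which overlapped. Pou5f1 stood at 1.02 and 27.7 FPKM in the Cre+ EDL libraries of this day and at 0.0785 and 0.387 FPKM in Cre+ SOL, while each Cre+ library of the other days held at least 5.02 FPKM. The study left out libraries that lacked OSKM, and the text read here does not say which. The part of this level in the difference between days was not tested.

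The 8 Ndufaf assembly factors did not move as 1 group. In EDL 2 of 8 fell at 2.5 days and 0 rose, and at 8.5 days 2 fell and 1 rose, with medians of -0.18 and -0.20. Of all genes tested, 10.2% were called lower and 13.8% higher at 2.5 days and 6.5% and 7.63% at 8.5 days, so with 8 genes these counts do not set the factors apart. Ndufaf6 (chr4:11051046-11076205 in mm10), which acts early in assembly, held 17.1 and 19.8 FPKM in Cre- EDL and 10.9 and 13.1 FPKM in Cre+ EDL at 2.5 days (-0.95 ± 0.15, adjusted p = 0.000609). At 8.5 days it held 19.8 and 20.4 FPKM in Cre- and 9.26 and 10.1 FPKM in Cre+ (-1.23 ± 0.15, adjusted p = 0.000222). It was also the only factor called between Cre- muscles, with 19.3 ± 1.47 FPKM in EDL and 11.8 ± 1.41 FPKM in SOL (0.81 ± 0.11, adjusted p = 8.44e-05). Without the first Cre- EDL library of 8.5 days Ndufaf2 was called lower in EDL as well (-0.51, adjusted p = 0.00372). In Cre+ muscle the difference of Ndufaf6 was 0.07 ± 0.11 (adjusted p = 0.646), and its change in EDL minus that in SOL was not called at 2.5 days (adjusted p = 0.171) or 8.5 days (adjusted p = 0.0757).

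Ndufaf5, an enzyme that hydroxylates Ndufs7, went from 14.8 and 15.1 FPKM to 11.3 and 12.8 FPKM at 2.5 days (-0.64 ± 0.16, adjusted p = 0.0108). The call was lost with library size alone (-0.64 became -0.31) and without the second library of either genotype. At 8.5 days its log2 fold change was -0.43 (adjusted p = 0.0905). Ndufaf1, which helps to build the membrane arm, changed by -0.49 at 2.5 days, under the fold threshold. At 8.5 days it fell from 28.8 and 33.7 FPKM to 21.3 and 24.7 FPKM (-0.62 ± 0.14, adjusted p = 0.0107). This call was lost with library size alone (-0.44), in the fits to 4 libraries (adjusted p = 0.0538 in DESeq2 and 0.0945 in edgeR), without the first Cre+ library (0.14) and without the second Cre- library (0.0556).

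Ndufaf2 (chr13:108052589-108158625 in mm10), a paralog of the subunit Ndufa12 that acts late in assembly, was the member that rose. It held 11 and 11.2 FPKM in Cre- EDL and 19.1 and 19.3 FPKM in Cre+ EDL at 2.5 days, and 12.5 and 10.1 FPKM and 18.4 and 18.4 FPKM at 8.5 days. In FPKM the Cre+ libraries were above the Cre- libraries at both days, as they were in 52.1% and 40.3% of all genes. The log2 fold change was 0.46 ± 0.14 at 2.5 days (adjusted p = 0.031, under the fold threshold) and 0.53 ± 0.14 at 8.5 days (adjusted p = 0.0253), and with library size alone it was 0.79 at 2.5 days (adjusted p = 0.00151). The 8.5 day call was lost in the fits to 4 libraries, with the replicate number as a block and without 3 of its 4 libraries in turn. In SOL it held 17 and 19.4 FPKM in Cre- and 16.5 and 14.3 FPKM in Cre+ at 2.5 days. It was lower in both Cre+ libraries, as were 10.5% of all genes, but not called (-0.39 ± 0.14, adjusted p = 0.254). The change in EDL minus that in SOL was 0.85 ± 0.20 (adjusted p = 0.0367), a call lost with no filter on low counts, with the replicate number as a block and in 7 of 8 fits that left out 1 library (adjusted p = 0.0596 to 0.15). At 8.5 days the difference was 0.63 ± 0.20 (adjusted p = 0.254). An antisense gene, B230220B15Rik, overlaps the exons of Ndufaf2 and is not used here.

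Of the other factors, Ndufaf3 and Ndufaf4 act together on the Q module, Ndufaf7 is a methyltransferase, and Ndufaf8 partners Ndufaf5. None of these 4 was called in EDL at 2.5 or 8.5 days. Ndufaf4 held 11.9 and 12.4 FPKM in Cre- EDL and 11.8 and 19 FPKM in Cre+ EDL at 2.5 days, a spread within Cre+ that exceeds the gap to Cre-. Ndufaf3 shares exon sequence on the opposite strand with Impdh2, which held 67.7 CPM in EDL against 16.8 for Ndufaf3 and rose at 2.5 days (1.02, adjusted p = 0.000625), so its own level is uncertain. The log2 fold changes of Ndufaf7 were 0.09 and -0.04 at the 2 days, and those of Ndufaf8 -0.20 and -0.19. In SOL the lowest adjusted p of the 8 factors was 0.241 at 2.5 days and 0.845 at 8.5 days, and 3 and 0 of them had an unadjusted p under 0.05.

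**Figure D5:**
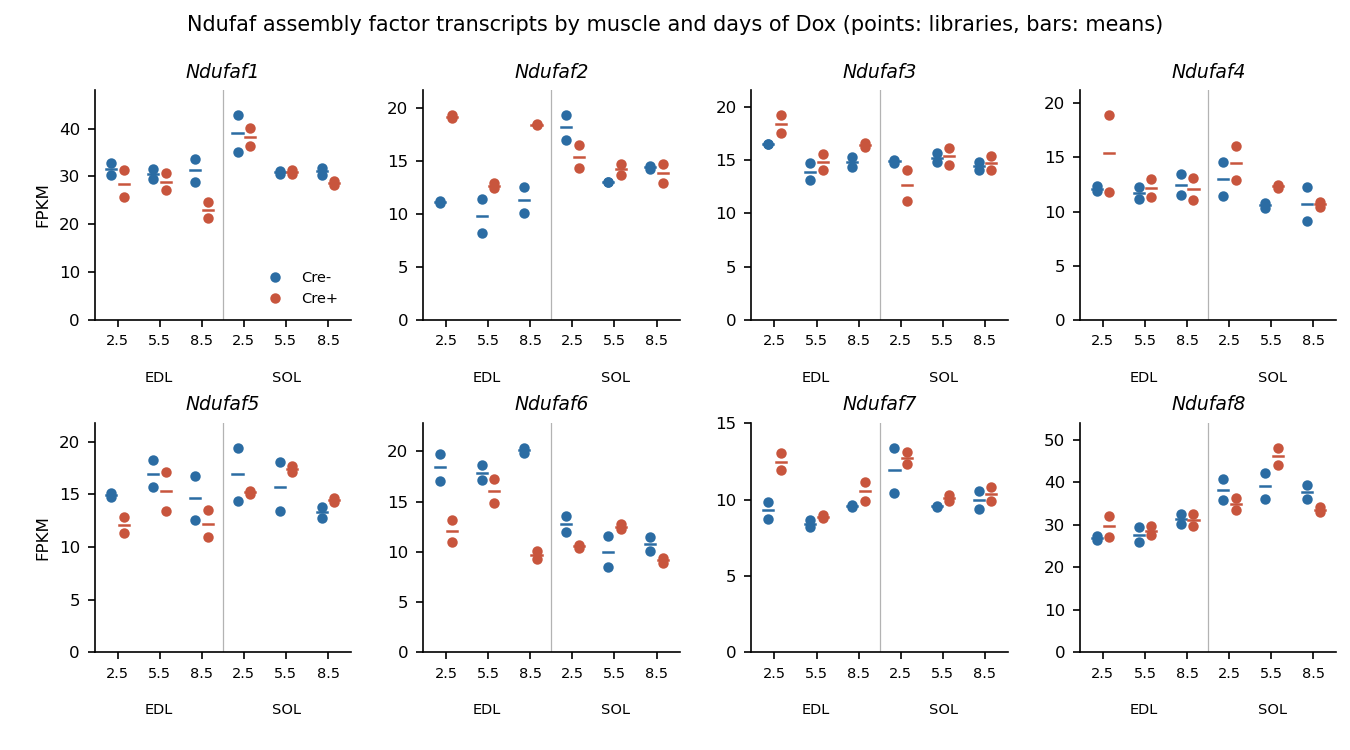
Level of the 8 Ndufaf assembly factors in FPKM in each library of EDL and SOL, with 1 point per library and a bar at the mean of 2 libraries, by day and genotype. Ndufaf6 is lower in Cre+ EDL (9.26 to 13.1 FPKM) than in Cre- EDL (17.1 to 20.4 FPKM) at 2.5 and 8.5 days, and Ndufaf2 is higher (18.4 to 19.3 against 10.1 to 12.5 FPKM). Of all genes, 15.4% and 15.5% were lower in every Cre+ EDL library at these days, and 52.1% and 40.3% were higher.

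Other genes of the pathway were counted by lists, against 10.2% of all genes tested called lower and 13.8% higher at 2.5 days and 6.5% and 7.63% at 8.5 days. Of 10 complex I assembly factors outside the Ndufaf names, 2 rose and 1 fell in EDL at 2.5 days, and 0 rose and 2 fell at 8.5 days. Acad9, which works with Ndufaf1, rose by 1.24 ± 0.12 at 2.5 days (adjusted p = 3.54e-05), and its change in EDL exceeded that in SOL by 1.13 (adjusted p = 0.0052). Nubpl, an iron-sulfur carrier, rose by 0.62, and Atp5sl fell by 0.72 at 2.5 days and by 0.51 at 8.5 days. Of 14 genes of iron-sulfur cluster assembly, 1 rose (Hscb) and 2 fell (Isca1 and Bola3) at 2.5 days, near those shares, and 4 fell at 8.5 days. Of 12 genes of NADH and shuttle enzymes, 7 fell and 1 rose at 2.5 days, and 6 fell and 1 rose at 8.5 days. Gpd1, which oxidizes cytosolic NADH, had -1.94 at 2.5 days, and the aspartate carrier Slc25a13 had 3.50.

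The subunits of the other respiratory complexes were read the same way in EDL. At 2.5 days 3 of 4 genes of complex II (median -0.64), 8 of 9 of complex III (-0.80), 11 of 12 of complex IV (-0.71) and 14 of 16 of complex V (-0.82) were called lower and 0 higher. At 8.5 days 4 of 4 (-0.61), 8 of 9 (-0.81), 10 of 12 (-0.71) and 14 of 16 (-0.76) were called lower. Complex I, with 32 of 38, lay within the range of these shares at 2.5 days. With 29 of 38 it had the lowest share of the complexes at 8.5 days. Its 38 genes include Ndufa4, which is found in purified complex IV, and Ndufa4l2. The difference between complexes was not tested.

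Markers of fiber and cell types moved with these counts in part, beside the same shares of all genes called (10.2% lower and 13.8% higher, then 6.5% and 7.63%). In EDL 4 of 7 fast-fiber markers fell at 2.5 days (median -0.91), and their summed level was 106248 to 121243 CPM in Cre- and 62762 to 94497 in Cre+. At 8.5 days 2 of 7 fell, with sums of 96837 to 119175 in Cre- and 88312 to 91103 in Cre+. None of 6 slow-fiber markers was called at either day. In the order of 2.5 and 8.5 days, 3 and 0 of 5 endothelial markers fell, 0 and 2 of 4 liver markers fell, and 1 of 3 brown adipocyte markers rose at both days. Ucp1, the defining marker of the last list, was at 0 in all EDL libraries of 2.5 days. No marker of macrophages (6), fibroblasts (5), satellite cells (4), Schwann cells (4), adipocytes (5), tendon (4) or erythroid cells (4) was called in EDL at either day. The part of these markers in the subunit changes was not tested.

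Counting limits touch some members. For 14 of 46 members more than 10% of the 50-base windows of the transcript occur in other transcripts, and for 24 none do. Among the 14 are Ndufab1 (12.3%), Ndufb6 (34.1%) and Ndufb9 (23.4%), so their own counts are uncertain. Exons of 19 members overlap another gene, in 17 cases on the opposite strand, and the strand setting of the counting is not given in the sources used here. Of the 13 members whose partner is in the table, the partner exceeded the member in EDL for 2, Ndufaf3 and Ndufa4l2 (18.7 CPM, with Shmt2 at 43.1). For these 2 members, 0 of the 50-base windows occur in another transcript. For Ndufs1, the partner Eef1b2 changed by 0.55 at 2.5 days while Ndufs1 fell (-0.73 ± 0.17, adjusted p = 0.00625).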

How the data were processed

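RNA-seq of whole EDL and SOL muscle was measured in 24 libraries, 2 per muscle, genotype and day. The libraries were stranded, single-end and polyA-selected. The deposited table holds raw counts, which the authors made by aligning reads to mm10 with STAR 2.5.3a and counting uniquely aligned reads on RefSeq exons with HOMER; FastQC 0.11.2 is also named in the submitters' notes. All 24 columns were mapped by title and 0 columns of other samples were left unused. Genes were kept by filterByExpr with a minimum count of 10, scaled by TMM and tested in edgeR 4.0.16 (R 4.3.3) with the quasi-likelihood test, 1 mean per group, on the 16 libraries of 2.5 and 8.5 days. The 5.5 day comparisons came from a fit to all 24 libraries. p-values were adjusted by Benjamini-Hochberg over all genes tested. FPKM values were computed from the counts, exon lengths and library totals. Total counts of 36088781 to 54679082 allow 3 counts to be seen at 0.0549 to 0.0831 CPM, a limit of counting error only. A permutation test of 2 against 2 libraries cannot go below p = 0.333, so single values have no such test. Replicates differed by more than sampling noise in every group. The common biological coefficient of variation was 0.174.

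The members and gene lists were chosen with earlier results of these data known. Named were the most abundant gene and the 2 with the largest EDL change at 2.5 days in each module, every subunit called in SOL or in a difference, the 3 smallest changes, the Ndufaf factors, Ndufa4 and Ndufa4l2, and the 5 largest EDL to SOL differences in each direction. DESeq2 1.42.0, other scalings, filters, thresholds, replicate blocks and leaving out each library were tried. EDL and SOL libraries of the same group and number deviated together (correlation 0.173 to 0.445 in 6 of 6 groups), so these numbers were taken to pair muscles, from the data and not the labels. Cre+ and Cre- libraries of the same number did not (-0.169 to 0.0578). The self-check of the tests used simulated counts. Promoters came from RefSeq tables of GRCm38.p6, of which 30 of 46 members had a start or end equal to the coordinates in the count table. A single subunit gene stays in all counts and tests, and its own values are not reported here.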

Additional observations from a re-analysis of the deposited data

Results flagged for a closer look

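The change of Ndufaf2 with OSKM induction differed between the muscles at 2.5 days, by a test of the difference itself. The change in EDL exceeded that in SOL by 0.85 on the log2 scale (edgeR, adjusted p = 0.0367). Ndufaf2 was higher in both Cre+ than in both Cre- EDL libraries and lower in both Cre+ than in both Cre- SOL libraries at this day. In FPKM, 52.1% of all genes were so placed in EDL and 10.5% in SOL. The call was lost with no filter on low counts (adjusted p = 0.0504) and, when 1 library was left out, in 7 of 8 cases (adjusted p = 0.0596 to 0.15), with values of 0.75 to 0.95 over all 8. It stayed with library size alone, at 1.03.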

How the results depend on the processing

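The direction of the subunit counts was the same under every alternative run: 0 subunits were called higher with OSKM. Of 1426 values of single members, 1316 kept their side of the threshold, 90 lost the call, 20 gained one and 0 changed sign while called. Of 166 subunit medians, 15 moved by more than 0.113, the spread between replicates.

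Library size alone left 7 subunits in EDL at 2.5 days (20 at 8.5 days), 3 between Cre- muscles, 10 between Cre+ muscles and 2 Ndufaf factors between Cre- muscles. It moved the all-gene split of calls (higher and lower) to 82 and 4 from 40 and 7 in EDL at 5.5 days, to 921 and 80 from 517 and 137 in the difference between muscles at 2.5 days, and to 1257 and 2117 from 1662 and 1702 between Cre- muscles. A log2 threshold of 1 left 1 subunit in EDL at 2.5 days, 1 at 8.5 days and 0 between muscles of either genotype, with 0, 1 and 0 Ndufaf factors in EDL at 2.5 days, at 8.5 days and between Cre- muscles. With no fold threshold 5 subunits were called between Cre- muscles, 29 between Cre+ muscles, and 4 and 3 Ndufaf factors in EDL at 2.5 days and between Cre- muscles. The fold threshold therefore set these counts by construction. On the 4 libraries of EDL at 8.5 days alone, edgeR called 10 subunits and 1 Ndufaf factor, and DESeq2 called 23 and 1. In SOL at 2.5 days DESeq2 called 20 subunits when fitted to the 16 libraries and 22 when fitted to 4, and edgeR with all 24 libraries called 8. DESeq2 called 4 in the difference between muscles at 8.5 days. The cause of these changes was not tested.

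Leaving out 1 library gave 25 to 32 subunits in EDL at 2.5 days, 10 to 32 at 8.5 days, 1 to 2 between Cre- muscles and 8 to 21 between Cre+ muscles. The lowest of the second and the last came without Cre+ EDL replicate 1 of 8.5 days. In SOL, at 5.5 days and in the differences it stayed at 0. Ndufaf counts were 1 to 3 in EDL at 2.5 days (1 without Cre- replicate 2), 1 to 3 at 8.5 days (1 without Cre+ replicate 1) and 1 to 2 between Cre- muscles.

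The replicate number of Cre+ and Cre- libraries, which share only a number, was also set as a block. With it 30 and 22 subunits and 2 and 2 Ndufaf factors were called in EDL at 2.5 and 8.5 days. The 8.5 day call of Ndufaf2 in EDL was lost, as was its 2.5 day difference between muscles (edgeR, adjusted p = 0.13). The block for paired EDL and SOL libraries changed no call.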
